A study of Mus musculus with 22 samples.

Results

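Suprabasal transition cells of the untreated mouse esophagus were examined as the cells that hold transcripts of basal and of differentiation keratins together. They were chosen from the control libraries by their unique molecular identifier (UMI) counts. For each cell, B was the sum of Krt5, Krt14 and Krt15 and D the sum of Krt4, Krt13 and Krtdap. A cell was a transition cell if B+D was at least 10 and B/(B+D) was at least 0.1 and under 0.5, unless 9 cell cycle genes (Top2a, Mki67, Cenpf, Ube2c, Cdk1, Ccna2, Ccnb1, Nusap1 and Birc5) together held at least 3 UMIs and at least 0.3% of its UMIs. This rule gave 235 of the 1500 control cells, in a series of 4500 cells. Of the other control cells under the cell cycle limit, 515 had a B/(B+D) of 0.5 or more and are called the basal side. A further 500 had a value under 0.1 and are called the superficial side. Another 232 cells reached the cell cycle limit and are called cycling, and 18 held fewer than 10 UMIs of the 6 keratin-axis genes.

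The control cells came from 6 untreated C57BL6 mice with 2 inDrop libraries each. Mice 1, 2 and 6 were young (3 to 4 months) and mice 3, 4 and 5 were old (18 to 20 months). The same rule was applied to 3 mice of 8 to 10 months in which ESCC had been induced with the carcinogen 4NQO in drinking water for 16 weeks and then withdrawn for 8 weeks, and to 4 mice with EoE-like inflammation after MC903 and ovalbumin (OVA) over 32 days, at 6 to 8 weeks or at 19 to 20 months of age. All mice carried the C57BL6 background, and the epithelium-enriched layer was peeled from muscle and dissociated before capture. No sort for a cell layer preceded capture.

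In a stratified squamous epithelium, basal keratinocytes rest on a basement membrane through hemidesmosomes, express Krt5, Krt14 and Krt15, and divide. Cells that leave the membrane loosen hemidesmosomal contacts, build desmosomes, exchange their keratins for Krt4 and Krt13, and later make lipids and cornified envelope proteins. Notch signaling between neighboring cells and the transcription factors Klf4, Grhl3 and Zfp750 are known to promote this change of state, while Trp63 and Sox2 are known for the basal state.

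Promoter sequences are shown for genes that were higher in transition cells than on both sides, the pattern to which the results return below. These genes were Atp1b3, which encodes a beta subunit of the sodium and potassium pump, Car12, a membrane carbonic anhydrase, Depp1, a target of FOXO factors, Barx2, a homeobox transcription factor, and Ier2, an immediate early gene. RefSeq promoter windows (GRCm38.p6) without bases inside the annotated gene were available for Atp1b3 (chr9:96364443-96364681, minus strand), Car12 (chr9:66713436-66713685, plus strand) and Depp1 (chr6:116650434-116650608, plus strand). Capitals mark matches to the motifs searched on both strands: AP-1 (TGANTCA), grainyhead-like (AACNGGTT), RBPJ (TGGGAA) and the GC box (GGGCGG).
Atp1b3: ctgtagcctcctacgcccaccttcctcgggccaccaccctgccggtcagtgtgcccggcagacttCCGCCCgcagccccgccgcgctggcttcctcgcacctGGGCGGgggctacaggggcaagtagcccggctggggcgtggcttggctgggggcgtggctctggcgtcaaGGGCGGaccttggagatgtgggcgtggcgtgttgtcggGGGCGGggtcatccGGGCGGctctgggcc
Car12: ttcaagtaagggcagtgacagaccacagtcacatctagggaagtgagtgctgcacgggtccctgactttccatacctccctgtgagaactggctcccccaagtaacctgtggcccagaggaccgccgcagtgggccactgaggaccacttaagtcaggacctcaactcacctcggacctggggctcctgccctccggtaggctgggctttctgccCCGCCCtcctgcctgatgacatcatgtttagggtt
Depp1: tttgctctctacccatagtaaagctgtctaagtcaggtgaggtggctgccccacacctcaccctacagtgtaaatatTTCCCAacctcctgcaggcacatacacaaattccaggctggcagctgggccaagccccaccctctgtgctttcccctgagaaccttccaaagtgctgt
The capitals in Atp1b3 are 5 GC boxes and those in Car12 are 1 GC box, the latter 35 to 30 bases before the RefSeq start. The capitals in Depp1 are 1 RBPJ match, 173 to 168 bases before the RefSeq start. Of 32851 RefSeq promoters with 250 bases before the start, 32.7% held a GC box, 21.6% an RBPJ match, 6.75% an AP-1 match and 1.79% a grainyhead-like match. Among all tested genes with a window, 63.9% of 1427 held a GC box, against 58.4% of 137 genes that were higher in transition cells than on the basal side and 62.7% of 110 that were lower. Barx2 and Ier2 are named without a sequence.

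In the build of the files (GRCm38), Atp1b3 lies at chr9:96332655-96364442, Car12 at chr9:66713686-66766845 and Depp1 at chr6:116650609-116652794. Barx2 lies at chr9:31846044-31913462 and Ier2 at chr8:84661331-84662852. Depp1 overlaps Rassf4 on the opposite strand, Barx2 overlaps Gm31497 and Adh7 overlaps 0610031O16Rik, so reads of these pairs may not have been told apart. Of the 31-base words in the 3' part of Atp1b3, 18.0% also occur in Gm1848 or Zcwpw1, and Zcwpw1 held 0 UMIs in the control cells.

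The control libraries held 44142 to 216907 UMIs (median 151398), and each contributed 3 to 52 transition cells. Per mouse, the transition cells numbered 56, 23 and 25 in the young mice 1, 2 and 6, and 9, 94 and 28 in the old mice 3, 4 and 5. A transition cell held a median of 867 UMIs (427 to 3798) and 594 genes, against 917 UMIs on the basal side and 1206.5 on the superficial side. The ESCC libraries were deeper (527815 to 1193420 UMIs) and the EoE libraries shallower (61571 to 85774 UMIs). Both libraries of a mouse shared barcodes: 122 control barcodes occurred in both, and their 2 records had a median correlation of log counts of 0.738, against 0.398 in 179 other pairs of the same mouse and class. The 235 transition records came from 221 barcodes. Among 23 such barcodes with a transition record, both records were transition cells in 14, and the median difference of B/(B+D) between the records was 0.0572. Results with 1 record per barcode are given beside the main counts.

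The values of the 6 genes of the rule chose the cells, and they are described here without a test. Per cell, transition cells held 6.80 ± 2.56 UMIs of Krt5 (mean ± SD over 6 mice), 1.33 ± 0.57 of Krt14 and 4.93 ± 3.59 of Krt15. They held 21.7 ± 6.38 UMIs of Krt4, 16.8 ± 9.21 of Krt13 and 4.23 ± 3.49 of Krtdap. Krt5 thus stood at 6.80 beside 9.22 on the basal side and 0.769 on the superficial side, whereas Krt14 stood at 1.33 beside 5.11 and 0.119. Every transition cell held a UMI of Krt4 and of Krt13, 97.9% held one of Krt5 and 48.1% one of Krt14. A median transition cell had 9 UMIs of B and 28 of D.

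These cells are a range cut from a gradient of keratin counts, not a cluster. From 0.1 to 0.2 on B/(B+D) there were 92 cells, from 0.2 to 0.3 there were 68, from 0.3 to 0.4 there were 40, and from 0.4 to 0.5 there were 35. Of all cells on the axis, 137 lay within 0.05 of the lower limit (47 of them transition cells) and 49 within 0.05 of the upper limit (11 of them transition cells). The 20 members just inside the lower limit (0.1 to 0.121) had a mean of 31.45 Krt4 UMIs, and the 20 cells just outside it (0.0877 to 0.0986) had 41.75. At the upper limit, the 20 members just inside (0.435 to 0.4925) had 7.15 Krt5 UMIs and 9.35 Krt4 UMIs, against 6.15 and 5.6 in the 20 cells just outside (0.5 to 0.529).

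Of the markers named for these cells, Adh7, Notch1 and Atp1b3 were not part of the rule. UMIs were summed per mouse and class, without the 15 genes of the rule, and scaled to counts per 1000000 (CPM). Adh7, an alcohol dehydrogenase that also oxidizes retinol, ranged from 2368 to 3611 CPM in transition cells of the 6 mice (median 2969). It ranged from 1220 to 1944 CPM on the basal side (median 1752) and from 2141 to 3323 CPM on the superficial side (median 2768). The transition and basal ranges did not overlap, and the transition and superficial ranges did. The log2 fold change of Adh7 was 0.81 ± 0.11 (SE) against the basal side, in 6 of 6 mice (edgeR quasi-likelihood test with mouse as a block, Benjamini-Hochberg adjusted p = 4.21e-08). The value against the superficial side was 0.16 ± 0.11 (adjusted p = 0.257).

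Notch1, a receptor that releases a transcriptional activator once a neighboring cell binds it, ranged from 153 to 330 CPM in transition cells (median 226). The basal side ranged from 27.2 to 200 CPM (median 163) and the superficial side from 43.8 to 237 CPM (median 58.0). Only 51, 68 and 43 Notch1 UMIs stood behind the transition, basal and superficial values, and all 3 ranges overlapped. Notch1 was higher in transition cells than on the superficial side in 6 of 6 mice (log2 fold change 1.55 ± 0.35, edgeR adjusted p = 0.000257). Against the basal side the difference of 0.62 ± 0.32 did not pass (adjusted p = 0.183).

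Atp1b3 ranged from 2037 to 3860 CPM in transition cells (median 2930), from 1886 to 2611 CPM on the basal side (median 2225) and from 1977 to 3215 CPM on the superficial side (median 2281). The 3 ranges overlapped, although within each of the 6 mice the transition value exceeded the basal one, and in 4 of 6 it exceeded the superficial one. The log2 fold change was 0.40 ± 0.11 against the basal side and 0.34 ± 0.11 against the superficial side (edgeR adjusted p = 0.00486 and adjusted p = 0.0117). The label of a suprabasal transition state thus rested on the keratins that chose the cells. Of the other markers, Adh7 was called against the basal side only and Notch1 against the superficial side only. Atp1b3 was called against both sides in the main fit and in 12 of 18 alternative settings. Against the nearest basal and superficial cells its log2 fold changes were 0.26 and 0.11 (edgeR adjusted p = 0.0886 and adjusted p = 0.559). Cells and gene lists were chosen with earlier results of these data known, so these markers are not an independent test of the label.

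**Figure D1:**
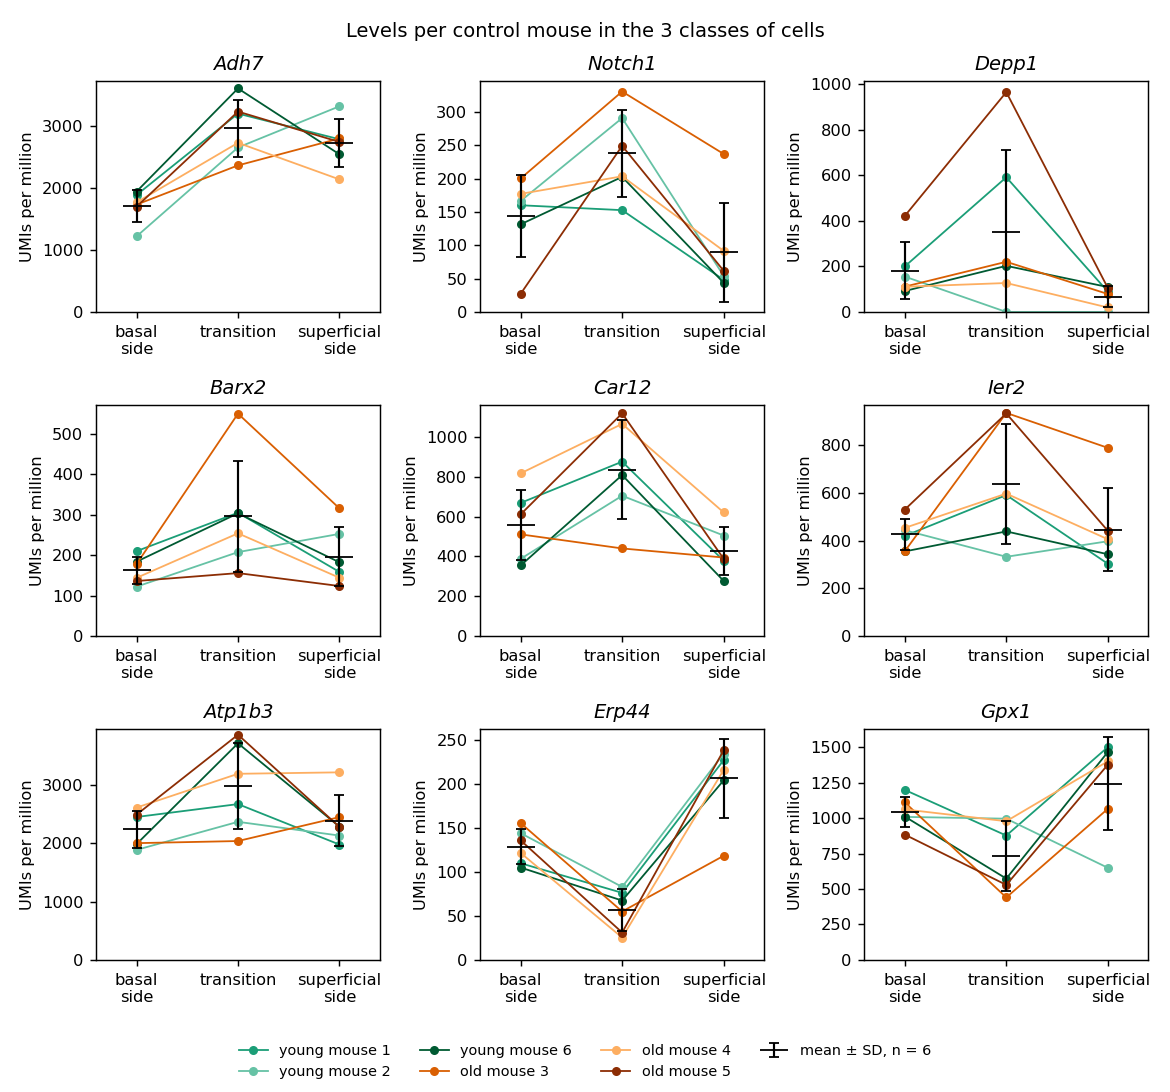
CPM of 9 genes, markers and genes called outside both sides, in basal side, transition and superficial side sums of the 6 control mice; points joined by lines are mice and the bars are mean ± SD. For Adh7 the 6 transition values (2368 to 3611 CPM) all lie above the 6 basal values, and for Notch1 and Atp1b3 the ranges overlap.

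To ask what separates transition cells from the cells still on the basal side, 1791 genes were tested. Of these, 325 differed (18.1% of all tested): 185 were higher in transition cells (10.3%) and 140 were lower (7.82%). With 1 record per barcode there were 161 and 148. Without a filter on low counts, 42.1% of the calls were higher, against 56.9% here.

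Mt4, a metallothionein of squamous epithelia, had the smallest adjusted p. It ranged from 2084 to 3862 CPM in transition cells (median 3405) against 200 to 680 CPM on the basal side (median 354), with no overlap (log2 fold change 2.91 ± 0.14, 6 of 6 mice, edgeR adjusted p = 6.29e-28). Calml3, a calmodulin-like protein of epithelial cells, ranged from 610 to 1147 CPM against 22.2 to 210 CPM, again with no overlap (log2 fold change 2.90 ± 0.22). Dsc2, a desmosomal cadherin, ranged from 191 to 1164 CPM against 22.2 to 177 CPM, also with no overlap (log2 fold change 2.77 ± 0.28). Genes with few basal UMIs gave larger or similar folds on less evidence. Fam25c rested on 4 basal UMIs (log2 fold change 3.78 ± 0.67) and Klk13, a kallikrein protease, on 5 (2.81 ± 0.65). Spink5, an inhibitor of kallikreins, had 9 basal UMIs and Serpinb12, a protease inhibitor, 11, at log2 fold changes of 3.17 ± 0.44 and 2.89 ± 0.53. For 4833423E24Rik, Ly6g6e and Psapl1 the log2 fold changes were 2.95, 2.94 and 2.86.

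Genes lower in transition cells than on the basal side included Jag2, a Notch ligand, with 33.8 to 254 CPM in transition cells (median 78.8) against 250 to 612 CPM (median 371). One transition value lay just above the lowest basal value, and the log2 fold change was -1.72 ± 0.29 (6 of 6 mice, edgeR adjusted p = 4.79e-06). Snai2, a repressor of epithelial adhesion genes, ranged from 31.1 to 67.5 CPM against 177 to 378 CPM on the basal side, with no overlap (log2 fold change -2.21 ± 0.41). Igfbp7, a secreted binding protein for insulin-like growth factors, ranged from 0 to 337 CPM against 500 to 775 CPM, again with no overlap (log2 fold change -2.04 ± 0.25). The matrix-associated genes Ccn1, Efemp1 and Smoc2 had log2 fold changes of -2.07 ± 0.28, -1.79 ± 0.29 and -1.70 ± 0.33. Dlk2, a membrane protein related to Notch ligands, stood at -2.51 ± 0.48, the secreted protein gene Wfdc2 at -1.71 ± 0.27 and Rbbp8, a DNA end resection factor, at -1.67 ± 0.38. Dcn, known as a fibroblast gene, stood at -2.50 ± 0.39, with 153 UMIs on the basal side and 16 in transition cells.

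To ask what separates transition cells from the superficial side, the same 1791 genes were compared. Of these, 601 differed (33.6%): 308 were higher in transition cells (17.2%) and 293 lower (16.4%). With 1 record per barcode there were 278 and 314, and without mouse 4, which held 94 of the 235 transition cells, 201 and 194. Without a filter on low counts, 20.1% of the calls were higher, against 51.2% here, and the median of the same genes moved from 0.03 to -0.28. Among the genes lower in transition cells, Cnfn, a cornified envelope protein, ranged from 31.1 to 534 CPM in transition cells (median 69.1) and from 790 to 5684 CPM on the superficial side (median 4119), with no overlap (log2 fold change -3.97 ± 0.22, edgeR adjusted p = 8.09e-25). Gjb2, which encodes connexin 26, ranged from 41.5 to 169 CPM against 560 to 1612 CPM, again with no overlap (log2 fold change -3.47 ± 0.25). Elovl4, an elongase of very long chain fatty acids, ranged from 0 to 140 CPM against 316 to 1166 CPM (log2 fold change -3.84 ± 0.30). Crct1 stood at -3.94, Crabp2, a retinoic acid binding protein, at -3.86 and Ly6g6c at -3.52, each lower in 6 of 6 mice. The protease inhibitor genes Spink5, Serpinb12 and Serpinb3a stood at -3.24, -3.22 and -3.11. Serpinb3a shares part of its sequence with Serpinb3c and Serpinb3b, so its counts are uncertain. Cysrt1 and Endou stood at -2.86 and -2.79.

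Among the genes higher in transition cells than on the superficial side, Col17a1, the hemidesmosomal collagen, ranged from 374 to 826 CPM in transition cells (median 613) and from 14.6 to 91.7 CPM on the superficial side (median 57.5), with no overlap. Its log2 fold change was 3.40 ± 0.27 (6 of 6 mice, edgeR adjusted p = 1.27e-17). Dst, a hemidesmosomal linker, ranged from 477 to 1576 CPM against 48.2 to 269 CPM (log2 fold change 2.91 ± 0.22). Wfdc2, Wnt10a (a Wnt ligand), Tgif1 (a repressor in TGF-beta signaling), Lamb3 (a laminin 332 chain), Efemp1, Igfbp3 and Gpnmb had log2 fold changes of 3.56, 3.32, 3.30, 3.07, 3.03, 3.03 and 2.81. Smoc2 had 22 UMIs in transition cells and 2 on the superficial side, a ratio of 30.5 with an exact 95% counting interval of 7.49 to 267. Dlk2, with 10 and 3 UMIs, had a ratio of 9.24 (2.38 to 52.2). These intervals cover counting error only.

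Of the 1791 genes, 127 were higher than on the basal side and lower than on the superficial side, and 93 the reverse. Another 53 were higher and 44 lower than on the basal side without a call against the superficial side, 210 were higher and 163 lower than on the superficial side without a call against the basal side, and 1093 were called against neither. Positions between the sides were taken from mean CPM, not from its logarithm. For the 286 genes at least 2-fold and significantly higher on the superficial side than on the basal side, transition cells had covered a median of 35.0% of the distance in CPM (quartiles 21.97% and 47.9%). For the 256 genes higher on the basal side they had covered a median of 55.4% (quartiles 38.5% and 68.4%). Of the first set 223 lay under 50%, and of the second 152 lay over 50%. These medians describe the 2 sets on the CPM scale, and positions on a log2 scale were not computed. The medians were not tested against each other.

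**Figure D2:**
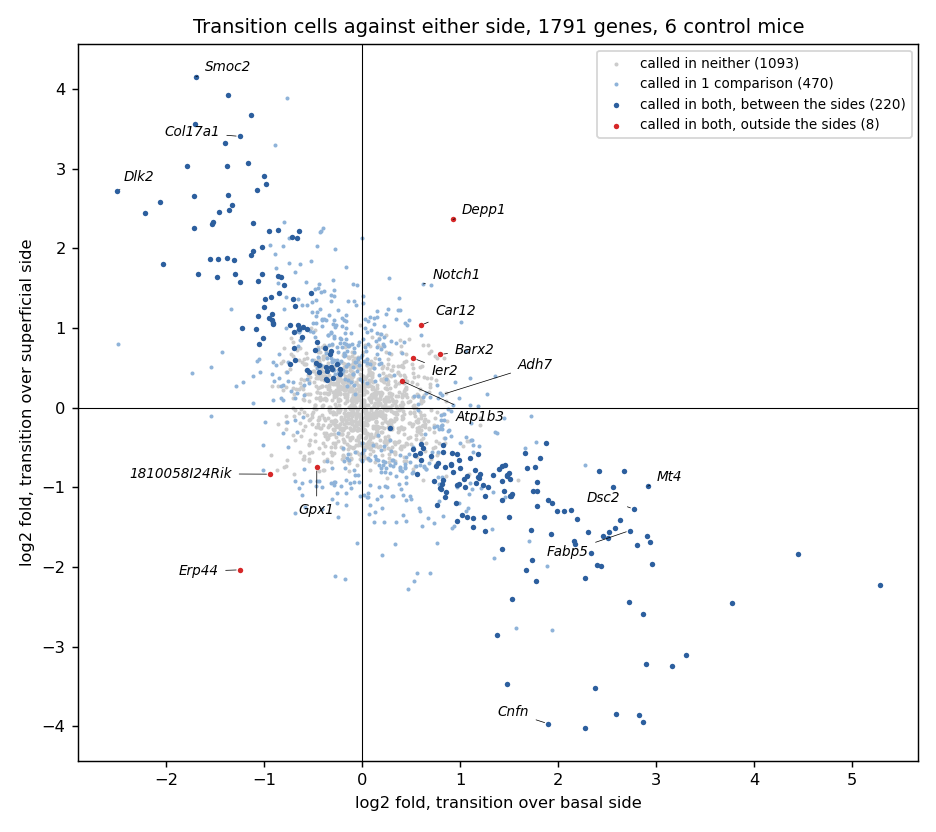
Log2 fold change of each of 1791 genes in transition cells against the basal side (x axis) and against the superficial side (y axis), colored by call. Of the genes called in both comparisons, 127 and 93 lie in the quadrants between the sides, 5 are higher than both and 3 are lower than both.

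A level outside both sides is not what a place between them gives by itself. Only 5 of 1791 genes (0.279%) were higher in transition cells than on both sides, and 3 (0.168%) were lower. For comparison, 17.8% of genes had a point estimate above both sides and 17.7% below both. Besides Atp1b3, Car12 ranged from 441 to 1121 CPM in transition cells (median 844), from 355 to 819 CPM on the basal side (median 562) and from 277 to 622 CPM on the superficial side (median 392). Car12 ranges overlapped, with log2 fold changes of 0.60 ± 0.17 against the basal side (5 of 6 mice, edgeR adjusted p = 0.00847) and 1.03 ± 0.18 against the superficial side (6 of 6 mice, adjusted p = 2.53e-06). Barx2 ranged from 156 to 551 CPM in transition cells (median 279), with log2 fold changes of 0.80 ± 0.26 and 0.67 ± 0.25 (edgeR adjusted p = 0.0234 and adjusted p = 0.0323). Ier2 ranged from 332 to 936 CPM (median 594), at 0.52 ± 0.19 and 0.62 ± 0.19 (edgeR adjusted p = 0.0472 and adjusted p = 0.00798). Both calls held in 7 of 16 alternative settings for Barx2 and in 3 of 18 for Ier2, against 12 of 18 for Atp1b3 and for Car12.

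Depp1 varied most between mice. Its transition values were 591, 0, 220, 127, 965 and 202 CPM in mice 1 to 6, so that mice 1 and 5 were high and mouse 2 held no UMI. Depp1 stood at 0.93 ± 0.29 against the basal side and 2.36 ± 0.33 against the superficial side (edgeR adjusted p = 0.0163 and adjusted p = 1.78e-08).

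The 3 genes lower than on both sides were Erp44, a chaperone of the early secretory pathway, Gpx1, a glutathione peroxidase, and 1810058I24Rik. Erp44 ranged from 25.4 to 83.0 CPM in transition cells, from 105 to 156 CPM on the basal side and from 118 to 238 CPM on the superficial side, without overlap, but it rested on 12 UMIs in transition cells (log2 fold changes -1.25 ± 0.42 and -2.04 ± 0.37). Gpx1 ranged from 441 to 996 CPM against 884 to 1200 and 650 to 1502 CPM, with overlap (log2 fold changes -0.46 ± 0.17 and -0.75 ± 0.16). For 1810058I24Rik the log2 fold changes were -0.94 ± 0.31 and -0.83 ± 0.31. These calls depended on the fit. Without mouse as a block 0 genes were higher and 1 (Erp44) was lower than both sides, and against the nearest cells on each side (B/(B+D) of 0.5 to 0.8 and of 0.03 to 0.1) there were 0 and 0. Without mouse 5 there were 1 and 0, and with 1 record per barcode 4 and 4.

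Along the fraction, mean Atp1b3 and Car12 were highest inside the range, where each bin averaged 5 mice, against 6 mice in the bins outside it. The part of this difference in mice was not tested. In 8 bins of B/(B+D), mean Atp1b3 was 1871 CPM in the most basal bin (0.85 to 1), 3504 ± 625 CPM from 0.3 to 0.5 (5 mice) and 2254 CPM in the most superficial bin (0 to 0.03). Car12 went from 553 CPM to 1119 ± 552 CPM and then to 314 CPM across the same 3 bins, and Notch1 from 109 CPM to 327 ± 169 CPM and 59.9 CPM. Adh7 was highest further toward the surface, at 3523 ± 617 CPM from 0.03 to 0.1, after 1110 CPM in the most basal bin. Col17a1 went along the same axis from 1504 CPM to 578 CPM and 9.67 CPM, and Fabp5 went from 124 CPM to 928 CPM and 5397 CPM. In the bins next to the range, Atp1b3 stood at 2941 CPM (0.5 to 0.7) and 2771 CPM (0.03 to 0.1), beside 2977 CPM inside it from 0.1 to 0.2. The bins describe the order of levels and were not tested. Neighboring bins of Atp1b3, Car12, Notch1 and Depp1 within the transition range differed by less than the larger of their SDs over mice.

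**Figure D3:**
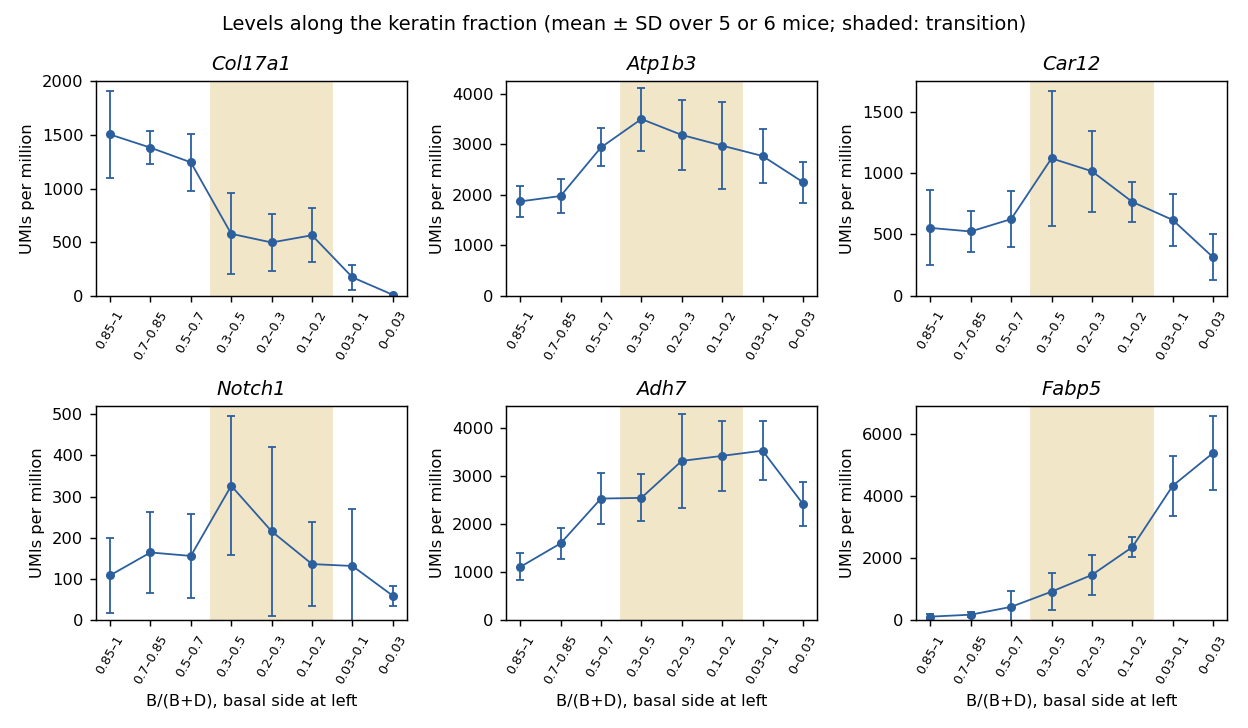
Mean CPM ± SD over mice of 6 genes in 8 bins of B/(B+D), from the basal end to the superficial end, with the transition range shaded. Bins inside that range hold 5 mice and bins outside it 6, and error bars are cut at 0. Atp1b3 is highest at 3504 CPM in the bin from 0.3 to 0.5, while Col17a1 declines and Fabp5 climbs toward the superficial end.

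The list counts below are to be read against the shares called over all tested genes, 10.3% higher and 7.82% lower against the basal side and 17.2% higher and 16.4% lower against the superficial side. The Notch pathway was sparsely detected. Of 32 listed genes 6 passed the filter on low counts, and against the basal side Notch3, a receptor, was higher and the ligand Jag2 lower (median log2 fold change of the 6 genes 0.28, against -0.01 over all genes). Notch3 had 132 ± 82.6 CPM in transition cells against 31.8 ± 16.6 on the basal side (log2 fold change 1.66 ± 0.52, edgeR adjusted p = 0.0155). Against the superficial side Jag2 and Notch1 were higher and none was lower. The filter keeps genes that are high in at least 1 class, so counts over tested genes do not speak for the whole list.

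Among squamous transcription factors, 6 of 19 tested genes were higher than on the basal side (all genes 10.3%) and 1 was lower (7.82%). Klf4 stood at 1316 ± 368 CPM in transition cells, between 766 ± 131 and 2168 ± 479 CPM on the basal and superficial sides. Grhl3 (249 ± 140 CPM between 52.5 and 825) and Zfp750 (260 ± 75.6 CPM between 36.5 and 426) were also called against both sides. Trp63, the factor of basal identity, was the 1 lower gene, at 366 ± 114 CPM against 717 ± 196 CPM (log2 fold change -1.05 ± 0.20). Sox2 kept 574 ± 201 CPM beside 610 ± 213 CPM on the basal side (log2 fold change -0.17 ± 0.19, not called) and was higher than on the superficial side (0.80 ± 0.20). In the comparison with the superficial side 4 of the 19 were higher (Klf5, Sox2, Trp63 and Barx2) and 7 lower.

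Adhesion genes split by the structure they belong to. Of 10 tested hemidesmosome and basement membrane genes, 8 were lower than on the basal side and 0 higher (median log2 fold change -1.07), and 9 were higher than on the superficial side (median 2.36). Itga6 and Itgb4, the integrin chains of the hemidesmosome, had 596 ± 176 and 333 ± 130 CPM in transition cells, against 1159 ± 268 and 836 ± 211 CPM on the basal side and 136 ± 33.7 and 65.7 ± 45.3 CPM on the superficial side. Of 10 tested desmosome genes, 9 were higher than on the basal side (median 0.83) and 7 lower than on the superficial side (median -0.83), with none in the other direction. Dsp, which encodes desmoplakin, had 2221 ± 322 CPM in transition cells between 1235 ± 245 and 4100 ± 577 CPM. Perp, a desmosomal tetraspan protein, had 1898 ± 357 CPM between 1003 ± 65.1 and 3033 ± 539 CPM. Both gap junction genes tested, Gja1 and Gjb2, were higher than on the basal side and lower than on the superficial side.

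Of 11 tested genes of retinoid and aldehyde metabolism, 6 were higher than on the basal side and 0 lower (median log2 fold change 1.02). Against the superficial side 1 was higher (Aldh2) and 4 lower. Aldh1a1, which makes retinoic acid, had 217 ± 130 CPM in transition cells against 63.2 ± 35.8 CPM on the basal side, and its level was not distinguishable from the superficial side (log2 fold change -0.11 ± 0.26, edgeR adjusted p = 0.780). Aldh3b2 and Aldh3a1, which oxidize fatty aldehydes, lay between the sides and were called against both. Crabp2 had 14 UMIs in transition cells and 3 on the basal side, a ratio of 9.76 with a counting interval of 2.72 to 53.0.

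Of 16 tested genes of sterol and fatty acid synthesis, 9 were higher than on the basal side (median log2 fold change 1.48) and 15 lower than on the superficial side (median -1.30), with none in the other direction. Fabp5, a fatty acid carrier, had 1806 ± 548 CPM between 241 ± 119 and 5064 ± 835 CPM. Sqle, an enzyme of sterol synthesis, rested on 18 UMIs in transition cells. Of 8 tested cornified envelope genes, 5 were higher than on the basal side and 6 lower than on the superficial side. Tgm3, a transglutaminase, had 1896 ± 775 CPM between 396 ± 136 and 4227 ± 1050 CPM. Krt80, a keratin of late differentiation, had 16 UMIs in transition cells and 0 on the basal side, at least 11.2-fold higher against a floor of 3 UMIs over the basal side.

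Of 6 tested genes of cell cycle exit and G1 control, Cdkn1a, the p21 inhibitor, was higher than on the basal side and Ccnd2, a D-type cyclin, lower. Cdkn1a had 698 ± 248 CPM between 156 ± 55.8 and 1549 ± 205 CPM (log2 fold changes 1.99 ± 0.23 and -1.30 ± 0.16). Ccnd2 had 459 ± 257 CPM between 1221 ± 268 and 85.8 ± 48.7 CPM. The cell cycle genes of the rule were not among them. Cells that reached the cell cycle limit of the rule had been removed from all 3 classes, but cycling cells under that limit could remain. The part of such cells in these differences was not tested. The summed share of S phase genes was 0.0930% of UMIs in transition cells, 0.177% on the basal side and 0.0413% on the superficial side, lower than the basal side in 6 of 6 mice and higher than the superficial side in 6 of 6 (exact sign-flip permutation test, two-sided, p = 0.03125, the smallest for 6 pairs, adjusted p = 0.0446 over 10 tests).

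Ribosomal protein genes followed the same order. Of 43 tested, 12 were lower than on the basal side and 31 higher than on the superficial side, with none in the other direction (medians -0.29 and 0.51). Their summed share was 7.62% of UMIs in transition cells, 9.09% on the basal side and 5.11% on the superficial side, in the same direction in 6 of 6 mice for each side (exact permutation test, adjusted p = 0.0446). Of 55 tested oxidative phosphorylation genes, 2 were lower than on the basal side (all genes 18.1% in either direction), and against the superficial side 5 were higher and 1 lower (all genes 33.6%).

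Of 15 tested immediate early genes, 1 was higher (Ier2) and 2 lower (Fosb and Myc) than on the basal side, beside 18.1% of all genes called in either direction, and 8 were higher than on the superficial side (all genes 17.2%) with none lower (median log2 fold change 0.57). Fos stood at 6150 ± 1520 CPM in transition cells, 6630 ± 1660 CPM on the basal side and 4358 ± 626 CPM on the superficial side. Of 18 tested genes of the NRF2 antioxidant response, 5 were higher and 1 lower than on the basal side (all genes 10.3% and 7.82%), and 1 was higher and 4 lower than on the superficial side (17.2% and 16.4%). Gsta4, a glutathione transferase, had 2416 ± 513 CPM between 1041 ± 168 and 4266 ± 538 CPM. Of 10 tested protease inhibitors, 4 were higher and 2 lower than on the basal side, and 1 was higher and 6 lower than on the superficial side. Of 11 tested S100 and annexin genes, 4 were higher (S100a14, S100a16, Anxa1 and Anxa8) and 2 lower (S100a6 and S100a10) than on the basal side.

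Of 9 tested glycolysis genes, 0 were called against the basal side and 1 (Slc2a1, a glucose transporter) was higher than on the superficial side. Slc2a1 had 229 ± 132 CPM in transition cells, 166 ± 48.8 CPM on the basal side and 122 ± 53.7 CPM on the superficial side. Of 9 tested genes of endoplasmic reticulum stress, 0 were called against the basal side, and against the superficial side 1 was higher and 2 lower. Of 11 tested heat shock genes, 1 was higher and 2 lower than on the basal side (all genes 10.3% and 7.82%), and 1 was higher and 4 lower than on the superficial side (17.2% and 16.4%). Of 3 tested genes of the sodium and potassium pump, Atp1b3 was called against both sides. Hbegf, an EGF receptor ligand, was higher than on the basal side and lower than on the superficial side, and Krt6a, a stress keratin, was higher than on the superficial side (1.38 ± 0.26) and not called against the basal side (0.37 ± 0.25, edgeR adjusted p = 0.333).

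**Figure D4:**
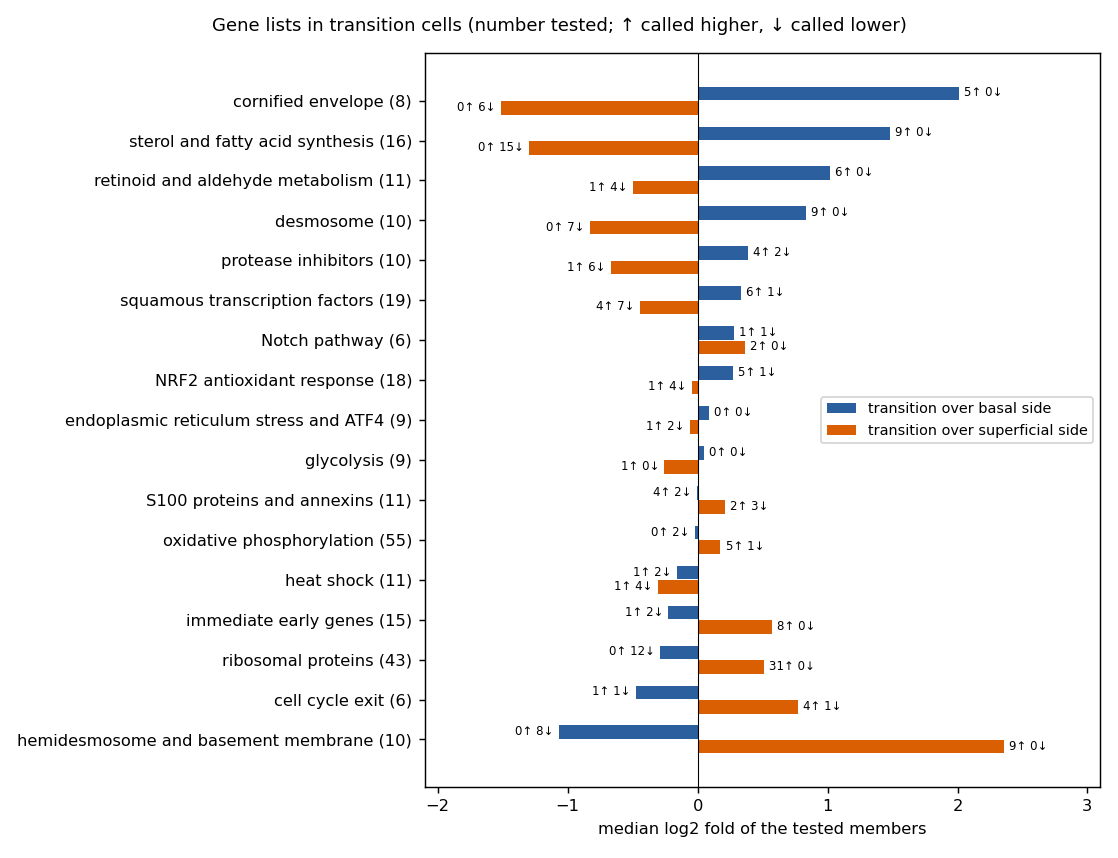
Median log2 fold change of the tested genes of each list in transition cells against the basal side (blue bars) and the superficial side (orange bars), with the number tested after each name and the numbers called higher and lower beside each bar. The bars of hemidesmosome genes reach -1.07 and 2.36, and those of desmosome genes point the other way (0.83 and -0.83).

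Other cell types contributed few transcripts. Of 12 immune markers 3 had a UMI in transition cells (12 UMIs in all, summed level 0 to 67.5 CPM per mouse) and Ptprc was at 0. Of 7 fibroblast markers 3 had a UMI (25 UMIs, 16 of them Dcn; 0 to 216 CPM), and Col1a1 and Col1a2 were at 0, while the basal side held 320 to 889 CPM, from Dcn and Sparc. Of 6 endothelial markers 1 had 1 UMI, and 7 muscle markers were at 0. Scrublet called 4 of the 235 transition cells (1.70%) doublets and 0 cells on either side. The median doublet score was 0.103 in transition cells, 0.0717 on the basal side and 0.0488 on the superficial side, and a doublet of a basal and a superficial cell could meet the rule; its part in the results beyond the called cells was not tested. Without these 4 cells, 183 genes were higher and 141 lower than on the basal side, 310 higher and 297 lower than on the superficial side, and 5 and 3 outside both.

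Per mouse, the median number of UMIs in a transition cell was 1113 ± 400, against 979 ± 159 on the basal side and 1264 ± 147 on the superficial side, and neither difference passed (exact permutation test, adjusted p = 0.281 for each). At 500 UMIs a cell, transition cells held a median of 379 ± 4.67 genes, fewer than the 385 ± 5.53 of the basal side and more than the 360 ± 7.86 of the superficial side, in 6 of 6 mice each (exact permutation test, adjusted p = 0.0446). This used the 228, 500 and 492 cells with at least 500 UMIs. The drawn UMIs included the genes of the rule, whose counts chose the classes. A median cell held 9 UMIs of B and 28 of D in transition, 20 and 5 on the basal side and 1 and 112 on the superficial side. The part of these genes in the number of genes was not tested. Shares of S phase, ribosomal protein and mitochondrial UMIs also had all UMIs as their total. The mitochondrial share was 5.32% in transition cells, 5.53% on the basal side (exact permutation test, adjusted p = 0.281) and 4.36% on the superficial side (6 of 6 mice, adjusted p = 0.0446).

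Transition cells also varied among themselves. The 110 cells at 0.25 or more were compared with the 125 cells below it, on 192 genes that passed the filter, and 8 genes (4.17%) were lower in the basal-leaning cells, with 0 higher (edgeR; 38 genes at an unadjusted p under 0.05). These 8 were Fabp5, 1810037I17Rik, Calml3, Dmkn, Gltp, Mt4, Gsta4 and S100a14. Fabp5 ranged from 497 to 1705 CPM in basal-leaning cells and from 1863 to 5841 CPM in superficial-leaning cells, with no overlap (log2 fold change -1.37 ± 0.24, edgeR adjusted p = 0.00104). Dmkn, a secreted epidermal protein, averaged 1629 ± 767 against 3412 ± 1190 CPM, and Gltp, a glycolipid transfer protein, 1361 ± 340 against 2434 ± 1040 CPM, both with overlapping ranges. With 1 record per barcode, 5 genes were higher and 10 lower.

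Few differences with age were detectable in these cells at this depth. Between 3 old and 3 young mice, 1 of 478 genes (0.209%) was called (edgeR; 37 at an unadjusted p under 0.05). Dst had 483, 769 and 732 CPM in the young mice 1, 2 and 6 and 1571, 1683 and 1495 CPM in the old mice 3, 4 and 5, with no overlap (log2 fold change 1.32 ± 0.26, adjusted p = 0.0415). The call was lost with DESeq2 (adjusted p = 0.119), without the called doublets (0.0631) and without any 1 of the 6 mice (0.0533 to 0.682), while the fold change stayed between 1.10 and 1.40 without 1 mouse.

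The same rule found 103 transition cells in the ESCC mice (35, 38 and 30 in mice 8M, 17F and 17M), beside 1100 basal side cells but only 39, 10 and 4 superficial side cells. These mice played no part in the choice of the control cells. Of the 185 genes higher than on the basal side in controls, 181 were tested in ESCC mice, 176 had the same sign (97.2%, against 48.5% of all tested genes) and 134 were called. Calls of genes higher than on the basal side made up 9.91% of the 3483 genes tested in ESCC mice. Of the 140 lower genes, 125 were tested, 119 had the same sign (95.2%, against 51.5%) and 71 were called (background 7.01%). For the superficial side, 252 of 285 higher genes (88.4%, against 56.3% of all tested genes) and 240 of 287 lower genes (83.6%, against 43.7%) kept the sign, but 6 and 9 were called (background 0.345% each way and 0.689% in all). None was called the other way in either comparison.

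None of the 8 genes outside both sides in controls was called outside both sides in ESCC mice, where Depp1 did not pass the filter on low counts. Only 24 of 3483 genes (0.689%) were called against the superficial side in ESCC mice, so the absence of a call says little about these genes. Atp1b3 stood at 1815 ± 131 CPM in ESCC transition cells, 1678 ± 144 CPM on the basal side and 1263 ± 389 CPM on the superficial side (log2 fold changes 0.11 ± 0.18 and 0.43 ± 0.20). Its contrast with the basal side differed between ESCC and control mice by -0.25 ± 0.21, which did not pass (edgeR adjusted p = 0.914). Car12 had 499 ± 39.4 CPM in ESCC transition cells against 731 ± 155 CPM on the basal side, and the difference between the contrasts was -1.10 ± 0.27 (edgeR adjusted p = 0.0489). That call was lost in 4 of 7 alternative settings, with differences of -1.35 to -0.68. Notch1 had 67.4 ± 23.9 CPM against 74.9 ± 12.8 CPM, with a difference of contrasts of -0.77 ± 0.47 (adjusted p = 0.861). In ESCC mice 3 other genes were higher than on both sides (0.0861%), Krt16, S100a8 and S100a9.

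In a joint fit of control and ESCC mice on 3412 genes, the transition to basal contrast differed for 8 genes (0.234%): 2 were shifted up in ESCC mice (0.0586%) and 6 down (0.176%). The transition to superficial contrast differed for 72 genes (2.11%), 69 of them shifted up (2.02%) and 3 down (0.0879%). The median of all genes in that comparison was itself shifted up by 0.21 on the log2 scale, and the counts became 31 up and 7 down with DESeq2 size factors, 12 and 0 with cells thinned to 500 UMIs and 8 and 0 without mouse as a block. Col17a1 was among the 6 genes shifted down against the basal side, with 143 ± 72.4 CPM in ESCC transition cells beside 1084 ± 106 CPM on the basal side, a difference of contrasts of -1.66 ± 0.32 (edgeR adjusted p = 0.00187). The ESCC libraries were deeper than the control libraries, the ESCC mice were of other ages, and the superficial sums of mice 17F and 17M rested on 10 and 4 cells. The part of these differences in the result was not tested.

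Transition cells made up 12.5% ± 2.85 of all cells in young controls and 16.1% ± 6.00 in old controls (exact permutation test, two-sided, p = 0.5, where 3 against 3 mice cannot go below 0.1). The old mice spanned 12.5% to 22.98%, the young mice 10.4% to 15.8%, and the ranges overlapped. In ESCC mice the share was 7.56% ± 3.102 against 14.3% ± 4.62 in the 6 controls, a difference of -6.74 percentage points (exact permutation test, p = 0.0476, adjusted p = 0.0476 over the ESCC and EoE comparisons). The ESCC mouse 8M (10.7%) lay above the lowest control (10.4%). With each cell thinned to 500 UMIs the difference was -8.97 points, and with B+D of at least 20 it was -5.43 points (exact permutation test, adjusted p = 0.0714). The call was also lost without any 1 of control mice 1 to 5 (p = 0.0714, exact permutation test). Without 1 ESCC mouse the test cannot pass the threshold of 0.05, so its p-values decide nothing there. They were 0.0714 without 8M and 0.143 without 17F or 17M (exact permutation test).

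In EoE mice 0.721% ± 0.641 of cells met the rule (12 cells), a difference of -13.6 points (exact permutation test, p = 0.00952, the smallest for 6 against 4 mice, adjusted p = 0.0190). The EoE libraries had median depths of 101 to 213.5 UMIs a cell, and 1159 of 1500 EoE cells fell under the minimum of 10 UMIs on the 6 genes. The part of depth in the EoE share was not tested with a depth that all EoE cells reach. Shares also depend on how cells were peeled, captured and drawn per condition.

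**Figure D5:**
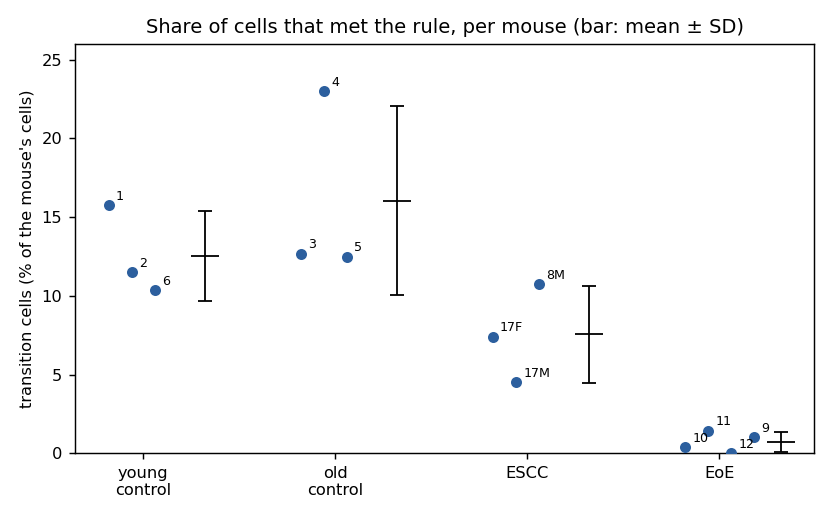
Share of all cells that met the transition rule in each of 13 mice, by group, with mean ± SD beside the points; the y axis is percent of cells. Old and young controls overlap (10.4% to 22.98%), ESCC mice lie at 4.54% to 10.7% and EoE mice at or under 1.44%.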

How the data were processed

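Single cell RNA sequencing libraries of 6 control, 3 ESCC and 4 EoE mice were used. The deposited values are whole-number counts of UMIs per gene and cell, without normalization. To make these counts the authors extracted barcodes with UMI-tools 1.0.0, aligned reads with STAR 2.7.3 to GRCm38, assigned them with featureCounts, filtered cells in Seurat and drew 1500 cells per condition. The strand setting of the counting is not given in the sources used here. The tables list 17541 genes, and 0 columns of cells were left unmapped. Libraries were assigned to mice by the digits of their labels.

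UMIs were summed per mouse and class, leaving out the 15 genes of the rule, and the sums entered the quasi-likelihood test of edgeR 4.0.16 under R 4.3.3. Library sizes were scaled by TMM, low counts were removed by filterByExpr, and p-values were adjusted by Benjamini-Hochberg with a threshold of 0.05. All 3 classes entered 1 fit with mouse as a block, because the classes of a mouse come from the same animal. Its p-values measure how the class differences vary between mice. The comparison of ages used transition sums alone, and its p-values measure the spread between mice. CPM is UMIs per 1000000 of the TMM-scaled total. Shares and cell measures were compared per mouse by exact permutation tests (two-sided). Each cell was thinned to 500 UMIs where depths were set equal. Doublets were called with Scrublet in scanpy 1.11.5 and kept, with an alternative without them. Other tools were DESeq2 1.42.0, pandas 2.3.3, matplotlib 3.10.9, scipy 1.17.1 and numpy 2.4.6. The procedure was tested on simulated data. Promoter sequences came from RefSeq, and positions from GENCODE annotation of GRCm38.

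Control libraries held 44142 to 216907 UMIs, so a gene with 1 UMI in the 242455 UMIs of the transition cells is close to the limit of detection, and counting intervals cover counting error only. Cells are not replicates.

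The members and gene lists were chosen with earlier results of these data known. Named genes were the markers, the 10 largest folds in each direction of each side's contrast (called, same sign in 6 of 6 mice, average log2 CPM of at least 6), all genes called outside both sides (at most 15 in each direction), up to 5 in each direction for age and within the transition range, and 2 to 4 examples for each list. Krt16, S100a8 and S100a9, Col17a1 in the ESCC comparison and members of lists not called were named after their values were seen. Alternatives were another normalization, DESeq2, no filter, library sizes with the genes of the rule, B+D of at least 20, no doublets, no non-epithelial cells, thinning, no block, narrower or nearer classes, and leaving out each mouse. One record per barcode, and all alternatives of the ESCC to control difference, were added after seeing the data.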

Additional observations from a re-analysis of the deposited data

Results flagged for a closer look

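In 6 control mice, 6 of 50 sets of mouse values held 1 mouse far from the others, where chance alone gives about 1 in 20. Mouse 3, which had the fewest cells (14 on the superficial side), stood apart on the superficial side for Notch1 (237 CPM, against a median of 58.0), Ier2 (790 CPM, median 402) and Erp44 (118 CPM, median 222). Mouse 2 had the lowest basal side level of Adh7 (1220 CPM, median 1752), and mouse 5 the highest basal side level of Depp1 (422 CPM, median 133). In transition cells of mouse 4 the mitochondrial share was 8.62%, against a mean of 5.32% over the 6 mice.

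The contrast of transition cells with the basal side differed between ESCC and control mice in 2 genes shifted up and 6 shifted down (edgeR quasi-likelihood interaction, log2). Genes named in the text among these were Mt4 (-1.41), Col17a1 (-1.66), Car12 (-1.10) and Slc2a1 (-1.60). Of 7 alternative settings, the call was lost in 4 for Car12, in 3 for Col17a1 and in 1 for Mt4. Mt4 stood at 2162 CPM on the basal side of ESCC mice against 390 CPM in controls, and at 6129 against 3182 CPM in transition cells.

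The contrast with the superficial side differed in 69 genes shifted up and 3 shifted down. The median of all 3412 genes was shifted up by 0.21. Up-shifted genes named in the text were Crabp2 (3.68), Gjb2 (3.25), Serpinb3a (2.91), Elovl4 (2.83), Crct1 (2.81), Spink5 (2.67), Ly6g6c (2.49), Cysrt1 (2.398), Endou (2.17), Serpinb12 (2.05), Klk13 (1.95), Psapl1 (1.75), Cdkn1a (1.48), 4833423E24Rik (1.47), Fabp5 (1.43), Aldh3a1 (1.41), Dmkn (1.23), Gsta4 (1.19), Gpx1 (1.01), Dsp (0.99), Anxa1 (0.89), Gltp (0.88), Mt4 (0.87), Perp (0.80) and S100a16 (0.77). Smoc2 (-4.53) and Ccnd2 (-2.25) were shifted down, and Smoc2 rested on 2 superficial UMIs in controls. Superficial sums of ESCC mice held 39, 10 and 4 cells, and the part of that number in the result was not tested.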

How the results depend on the processing

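Against the basal side 185 genes were higher and 140 lower, and this became 89 and 66 with cells thinned to 500 UMIs, 102 and 78 at B/(B+D) of 0.2 to 0.4, 83 and 51 against the nearest cells and 136 to 161 and 115 to 143 without 1 mouse. Against the superficial side the 308 and 293 became 175 and 696 without a filter, 130 and 124 thinned, 39 and 57 against the nearest cells and 201 to 299 and 194 to 357 without 1 mouse, and at 0.2 to 0.4 there were 201 higher. The same mouse gives all classes, and without the replicate block 91 genes were lower than on the basal side. The 5 genes above both sides became 1 with DESeq2 (Car12), 0 unfiltered, 1 thinned (Atp1b3), 0 without the block, 3 at 0.2 to 0.4, 0 against the nearest cells and 1 to 5 without 1 mouse. The 3 below both became 0, 1, 0 and 1 under the first 4 of these, 0 against the nearest cells and 0 to 3 without 1 mouse. Within the transition range, 0 higher became 1 with B+D of at least 20, 1 without doublets and 5 with 1 record per barcode (0 to 3 without 1 mouse), and 8 lower became 5 thinned and 1 without the block (4 to 9). With age, 1 higher became 0 with DESeq2 size factors, DESeq2, no filter, no doublets or 1 mouse less, and 6 thinned, and 0 lower became 1 with B+D of at least 20 or thinned and 0 to 0 without 1 mouse.

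In ESCC mice, the 345 and 244 genes became 54 and 14 thinned, 213 and 138 without the block and 240 to 298 and 166 to 222 without 1 mouse. The 12 and 12 against the superficial side became 5 and 5 with DESeq2, 0 and 5 thinned, 0 and 0 without the block and 7 to 23 and 3 to 23 without 1 mouse. The 3 above both became 1, 0 and 0 under these settings, and 0 to 4 without 1 mouse. The difference from controls on the basal side, 2 up and 6 down, became 1 and 1 thinned and 0 and 0 without the block, with 1 up for 1 record per barcode (1 to 4 and 2 to 6 without 1 mouse). On the superficial side, 69 and 3 became 31 and 7 with DESeq2 size factors, 12 and 0 thinned and 8 and 0 without the block (25 to 95 and 2 to 4 without 1 mouse). There Crct1 turned from 2.81 to -0.93 thinned and Smoc2 from -4.53 to 0.19 without mouse 8M (-4.75 to 0.19 without 1 ESCC mouse), the only called values of named genes that changed sign. The cause was not tested, although thinning leaves fewer genes to test.

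The old minus young share ranged from 0.0387 to 5.28 points without 1 mouse, the ESCC difference from -8.33 to -5.00 and was -5.43 with B+D of at least 20 (exact permutation test, p = 0.0714), and the EoE difference from -14.4 to -11.8. Without 1 mouse, 5 pairs cannot pass the threshold, and the differences from the basal and superficial sides ranged from -6.8 to -4.6 and 17.1 to 20 genes at 500 UMIs, from 0.736 to 1.15 points in mitochondrial share (superficial side), from -1.59 to -1.10 and 2.31 to 2.697 points in ribosomal share and from -0.0975 to -0.0723 and 0.0471 to 0.0555 points in S phase share. Precision was limited by 9 to 94 transition cells per mouse.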
